A study of Mus musculus with 7 samples.

Results

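The genes described here make, store, release and take up fatty acids and triglycerides in the liver, and they include the proteins that coat lipid droplets. They are 50 of the 56691 genes in the deposited count table, found by matching their symbols, and 48 of them were among the 13683 genes with enough counts to be tested. RNA of whole liver was sequenced from 4 control mice and 3 mice given lipopolysaccharide (LPS), a bacterial cell wall component that sets off systemic inflammation. All were male mice of the inbred strain C57BL/6J, bought at an age of 8 weeks and housed for 2 weeks on standard chow before the experiment. The LPS mice received 10 mg/kg into the peritoneum and were killed 24 h later. The labels do not say what the control mice were given in place of LPS. Counts summed to 14991022, 15096573, 15721944 and 18584140 in the control mice and 20500391, 17095607 and 17821331 in the LPS mice, and all values below that belong to single mice are in the order of replicate number.

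In hepatocytes, carbon from glucose is turned into citrate, acetyl-CoA, malonyl-CoA and then palmitate, and elongases and desaturases turn palmitate into longer and unsaturated fatty acids. SREBP-1c and ChREBP are the transcription factors known for driving these genes after feeding, under insulin and glucose. Fatty acids made in the cell or taken up from blood are esterified to triglyceride, which is exported in very low density lipoprotein (VLDL) or kept in droplets whose coat proteins control access of lipases.

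Of the 48 tested members, 23 fell and 11 rose with LPS, called where the adjusted p-value was below 0.05. The 23 include Mogat1, which had enough counts in the control mice only, and without it 22 of 47 fell. Over all tested genes the same rule called 13% lower (1773) and 13.3% higher (1825). This balance depended on scaling, since with no scaling factor 2057 genes were lower and 1350 higher, and of the members 23 were lower and 9 higher. With an absolute log2 fold change above 1 required as well, 14 members were lower, against 7.31% of all tested genes (1000), and 8 were higher, against 7.81% (1068). The median log2 fold change was -0.28 over the tested members and -0.01 over all tested genes. All 8 regulators and enzymes of de novo lipogenesis fell, as did 7 of 9 desaturases and elongases, whereas 4 of 6 tested droplet coat genes rose and none fell. Glycerolipid synthesis (3 higher and 2 lower of 9), lipolysis (1 higher and 3 lower of 7) and fatty acid uptake and binding (2 higher and 3 lower of 7) held calls in both directions. Of the 2 genes of VLDL assembly, 1 rose. Levels are counts relative to the scaled library size (CPM), and the fold changes and adjusted p-values come from edgeR's quasi-likelihood test. In samples of whole tissue, fewer cells of a type and less RNA per cell cannot be told apart.

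**Figure D1:**
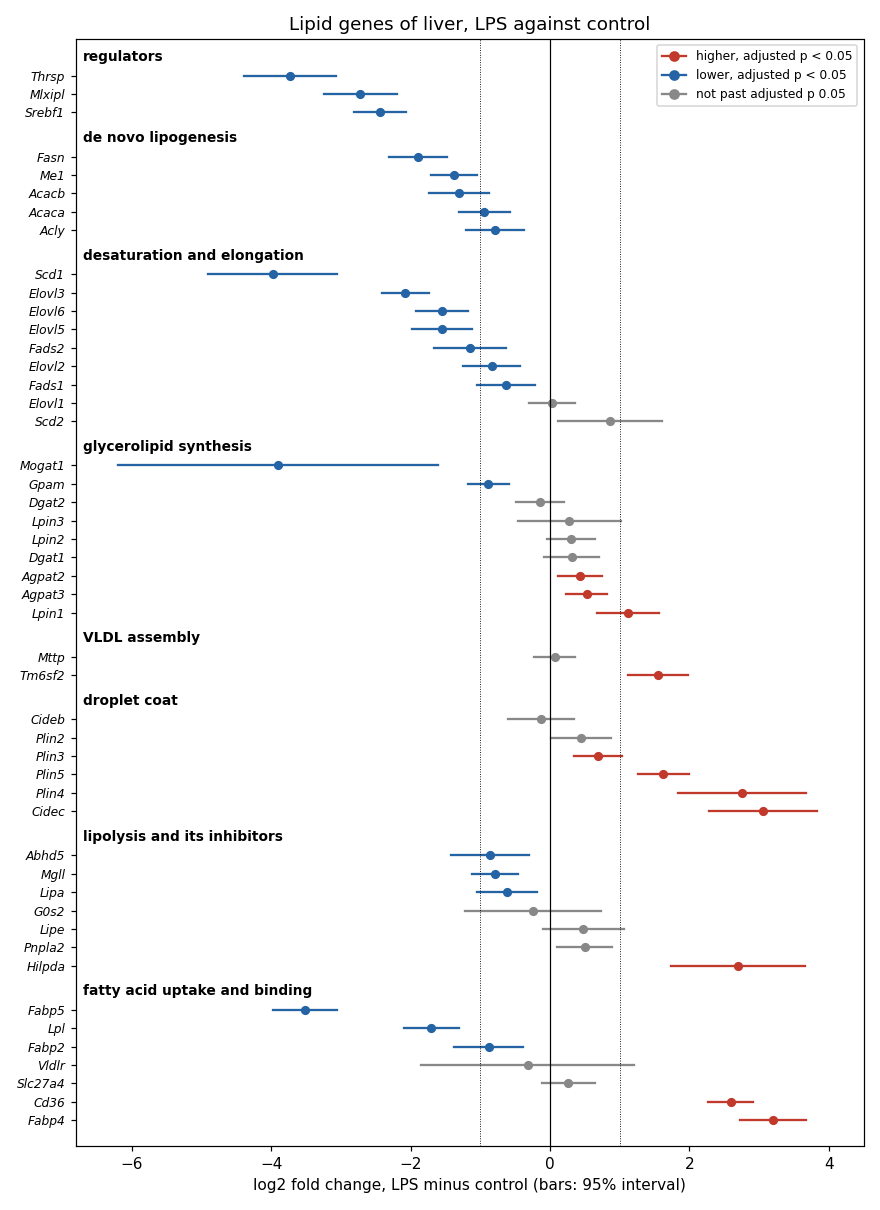
Log2 fold change (LPS minus control, x axis) of the 48 tested members, grouped by function, with the 95% interval as a bar. Red and blue mark genes higher and lower at an adjusted p-value below 0.05, grey marks the others, and dotted lines stand at -1 and 1. Regulators and de novo lipogenesis lie wholly to the left of 0, and Cidec, at 3.06, lies farthest right among the droplet coat genes.

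The tissue label was checked with marker genes. The 11 matched hepatocyte markers summed to 78039, 81682, 108042 and 91929 CPM in the control mice and 68339.7, 81196 and 81716 CPM in the LPS mice, and none was at 0. Of these markers 2 were higher and 4 lower, so that similar sums hid opposite moves. Albumin (Alb), the most abundant in the control mice and LPS replicate 1, was at 37958, 37776, 61686 and 50492 CPM in the control mice and 24642, 24659 and 24693 CPM in the LPS mice. Fgb, an acute phase gene and the most abundant in LPS replicates 2 and 3, was at 4044, 4858, 6522 and 5371 CPM in the control mice and 19975, 28459 and 29164 CPM in the LPS mice, and Cyp3a11 at 2988, 3349, 4177 and 3002 CPM in the control mice and 178, 112 and 96.5 CPM in the LPS mice. The members together took 0.94, 0.995, 0.986 and 1.45% in the control mice and 0.402, 0.386 and 0.379% in the LPS mice of all counts, so that every LPS mouse was below every control mouse. Genes encoded by mitochondrial DNA took 23.7, 14.6, 7.48 and 8.96% in the control mice and 6.45, 3.83 and 3.94% in the LPS mice of the counts, highest in control replicate 1. Leaving those genes out before scaling changed no call among the members. LPS replicates 2 and 3 resembled each other more closely than other mice of a group did. Over 1901 genes with a mean of at least 1000 counts, the SD of the log2 ratio was 0.118 for this pair and from 0.299 to 0.548 for the other pairs. They were kept as 2 mice, as labelled. When their counts were summed into 1 sample, 29 of the 34 member calls were kept.

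All 3 regulators fell. Srebf1 (ENSMUSG00000020538), which encodes SREBP-1, was at 69.8, 85, 74.4 and 61.4 CPM in the control mice and 11.4, 13.3 and 15.5 CPM in the LPS mice. No LPS mouse came near the lowest control mouse, and the log2 fold change was -2.44 (adjusted p = 6.04e-07, SE 0.17). Mlxipl (ENSMUSG00000005373), which encodes ChREBP, was at 317, 238, 203 and 215 CPM in the control mice and 51.2, 27.9 and 31.4 CPM in the LPS mice. LPS replicate 1 was the highest of its group but far below every control mouse, with a log2 fold change of -2.72 (adjusted p = 4.26e-06, SE 0.24). Thrsp (ENSMUSG00000035686), the thyroid hormone responsive Spot 14 protein of lipogenic tissues, was at 182, 199.6, 80.8 and 126 CPM in the control mice and 9.4, 12.9 and 11 CPM in the LPS mice. Control mice differed more among themselves than LPS mice, and the groups did not overlap, with a log2 fold change of -3.73 (adjusted p = 1.83e-06, SE 0.30). Summed over the 3 genes, the level was 568, 522, 359 and 403 CPM in the control mice and 72, 54.2 and 57.9 CPM in the LPS mice.

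All 5 genes of de novo lipogenesis fell. Fasn (ENSMUSG00000025153), fatty acid synthase, was at 163, 164, 104 and 143 CPM in the control mice and 31.8, 43.2 and 41.4 CPM in the LPS mice. Control replicate 3 was the lowest control mouse and still above all LPS mice, and the log2 fold change was -1.89 (adjusted p = 1.37e-05, SE 0.19). Me1 (ENSMUSG00000032418), the cytosolic malic enzyme that supplies NADPH, was at 217, 182, 208 and 232 CPM in the control mice and 70.3, 83 and 89.6 CPM in the LPS mice. Both groups were tight and apart, with a log2 fold change of -1.37 (adjusted p = 2.76e-05, SE 0.15). Acacb (ENSMUSG00000042010), the acetyl-CoA carboxylase whose malonyl-CoA restrains fatty acid oxidation at mitochondria, was at 38.8, 52.3, 43.4 and 69.4 CPM in the control mice and 21.1, 18.6 and 22.5 CPM in the LPS mice. Control replicate 4 was the highest, no LPS mouse reached a control mouse, and the log2 fold change was -1.30 (adjusted p = 3.95e-04, SE 0.20). The other 2 genes fell by less than 1 on the log2 scale. Acaca, the cytosolic acetyl-CoA carboxylase of lipogenesis, was at 49.5 ± 2.2 CPM (SD, n = 4) in control mice and 25.8 ± 6 CPM (SD, n = 3) in LPS mice, a log2 fold change of -0.94 (adjusted p = 0.00129, SE 0.17). Acly, ATP citrate lyase, was at 122 ± 29.4 CPM (SD, n = 4) in control mice and 70.5 ± 8.99 CPM (SD, n = 3) in LPS mice, a log2 fold change of -0.79 (adjusted p = 0.00844, SE 0.19).

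Among the desaturases and elongases, Scd1 (ENSMUSG00000037071), the main stearoyl-CoA desaturase of liver, was at 4465, 3748, 3731 and 6914 CPM in the control mice and 533, 181 and 182 CPM in the LPS mice. LPS replicate 1 stood above the other LPS mice yet below every control mouse. The log2 fold change was -3.98 (adjusted p = 2.11e-05, SE 0.43), and without LPS replicate 1 it was -4.69 (adjusted p = 9.94e-07). Scd1 alone made up 44.8, 39.5, 39.4 and 53% in the control mice and 14, 4.26 and 4.33% in the LPS mice of the summed CPM of the 50 members. Without Scd1 that sum was 5504, 5732, 5739 and 6129.8 CPM in the control mice and 3269, 4075 and 4028 CPM in the LPS mice, still lower in each LPS mouse than in each control mouse. Scd2, a close paralog, was not called. Its level was 9.84, 6, 3.54 and 7.45 CPM in the control mice and 18.8, 8.83 and 8.72 CPM in the LPS mice, with overlapping groups and a log2 fold change of 0.86 (95% interval 0.11 to 1.61, adjusted p = 0.0852). Without control replicate 1 it was 1.10 (adjusted p = 0.0367), and without LPS replicate 1 it was 0.39 (adjusted p = 0.45).

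Elovl3 (ENSMUSG00000038754), an elongase of saturated and monounsaturated very long chain fatty acids, was at 675, 850.5, 745 and 748 CPM in the control mice and 169.5, 191 and 178 CPM in the LPS mice. Spread within either group was small beside the distance between groups, and the log2 fold change was -2.07 (adjusted p = 8.70e-07, SE 0.15). Elovl5 (ENSMUSG00000032349), an elongase of polyunsaturated fatty acids, was at 559, 438, 375 and 567 CPM in the control mice and 129.5, 192 and 177 CPM in the LPS mice. LPS replicate 1 was the lowest mouse, and the groups were apart, with a log2 fold change of -1.55 (adjusted p = 9.76e-05, SE 0.20). Elovl6 (ENSMUSG00000041220), which lengthens palmitate to stearate, was at 76.8, 58.6, 58 and 62.1 CPM in the control mice and 17.4, 23.4 and 24.7 CPM in the LPS mice. The LPS mice again lay below all control mice, with a log2 fold change of -1.55 (adjusted p = 2.81e-05, SE 0.17). Fads2 (ENSMUSG00000024665), the delta-6 desaturase, was at 189, 231, 311 and 294 CPM in the control mice and 75.1, 142 and 130.2 CPM in the LPS mice. LPS replicate 1 was lowest, LPS replicate 2 came closest to the controls without reaching them, and the log2 fold change was -1.15 (adjusted p = 0.00323, SE 0.24). Elovl2, which acts on long polyunsaturated chains, was at 457 ± 84.8 CPM (SD, n = 4) in control mice and 256 ± 43.9 CPM (SD, n = 3) in LPS mice, a log2 fold change of -0.84 (adjusted p = 0.00523, SE 0.19). Fads1, the delta-5 desaturase, was at 303 ± 52.4 CPM (SD, n = 4) in control mice and 196 ± 44.5 CPM (SD, n = 3) in LPS mice, a log2 fold change of -0.63 (adjusted p = 0.0305, SE 0.19). The call of Fads1 was kept in 3 of 7 fits that each left out 1 mouse, and without LPS replicate 1 the log2 fold change was -0.45 (adjusted p = 0.111). It was also lost without control replicate 2, control replicate 4 or LPS replicate 3. Elovl1, an elongase of very long saturated chains, was not called, at 30.8 ± 3.6 CPM (SD, n = 4) in control mice and 31.5 ± 3.62 CPM (SD, n = 3) in LPS mice, a log2 fold change of 0.03 (95% interval -0.30 to 0.36, adjusted p = 0.915).

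Glycerolipid synthesis joins fatty acids to glycerol 3-phosphate step by step. Gpam, the mitochondrial acyltransferase of the first step, fell from the level in control mice, with 134 ± 11.7 CPM (SD, n = 4) in control mice and 72.5 ± 3.77 CPM (SD, n = 3) in LPS mice, a log2 fold change of -0.88 (adjusted p = 4.28e-04, SE 0.14). Agpat3, an acyltransferase of the next step, rose, with 109 ± 6.24 CPM (SD, n = 4) in control mice and 158 ± 16.9 CPM (SD, n = 3) in LPS mice, a log2 fold change of 0.53 (adjusted p = 0.0119, SE 0.14). The call of Agpat3 was lost without LPS replicate 2 and without LPS replicate 3, at 0.49 (adjusted p = 0.0696) and 0.48 (adjusted p = 0.0728), and with no scaling factor, at 0.40 (adjusted p = 0.0736). Agpat2, its relative, was called narrowly, with 164 ± 6.86 CPM (SD, n = 4) in control mice and 221 ± 37.5 CPM (SD, n = 3) in LPS mice, a log2 fold change of 0.43 (adjusted p = 0.0466, SE 0.15). Its call was kept in 1 of 7 fits that left out a mouse, that without LPS replicate 1, and with no scaling factor it was at 0.30 (adjusted p = 0.168). Lpin1 (ENSMUSG00000020593), a phosphatidate phosphatase that makes diacylglycerol and also acts as a transcriptional coactivator, was at 16.3, 28.6, 21.3 and 27.8 CPM in the control mice and 63.4, 47 and 43.3 CPM in the LPS mice. All LPS mice were above all control mice, LPS replicate 1 highest, and the log2 fold change was 1.12 (adjusted p = 0.00138, SE 0.20).

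The other phosphatidate phosphatases were not called. Lpin2 was at 104 ± 20.2 CPM (SD, n = 4) in control mice and 129 ± 4.97 CPM (SD, n = 3) in LPS mice, a log2 fold change of 0.31 (95% interval -0.04 to 0.65, adjusted p = 0.183), and without control replicate 4 it was 0.44 (adjusted p = 0.0475). Lpin3 was at 2.88 ± 1.06 CPM (SD, n = 4) in control mice and 3.5 ± 0.232 CPM (SD, n = 3) in LPS mice, a log2 fold change of 0.28 (95% interval -0.46 to 1.02, adjusted p = 0.603). The ratio of Lpin1 to Lpin2 within a mouse, which does not depend on scaling, was 0.185, 0.306, 0.208 and 0.208 in the control mice and 0.47, 0.369 and 0.345 in the LPS mice. Dgat1 and Dgat2, which catalyse the last step to triglyceride, were not called either. Dgat1 was at 11.3 ± 1.92 CPM (SD, n = 4) in control mice and 14 ± 0.53 CPM (SD, n = 3) in LPS mice, a log2 fold change of 0.31 (95% interval -0.08 to 0.71, adjusted p = 0.231). Dgat2 was at 232 ± 34.7 CPM (SD, n = 4) in control mice and 210.4 ± 24 CPM (SD, n = 3) in LPS mice, a log2 fold change of -0.14 (95% interval -0.49 to 0.21, adjusted p = 0.572). Mogat1, a monoacylglycerol acyltransferase, was barely counted, with 15, 11, 13 and 3 counts in the control mice and 1, 1 and 0 in the LPS mice. Control replicate 4 was near the LPS mice. It was the only tested member (1 of 48) that reached the level needed for testing in 1 group only. The 42 control and 2 LPS counts give a ratio of control to LPS of 16.7, with a counting interval of 4.34 to 142 at 95% that leaves out the spread between mice. The adjusted p was 0.0161, and the call was lost without any 1 of the LPS mice, with an adjusted p of 0.0544 without LPS replicate 1, 0.0537 without LPS replicate 2 and 0.0744 without LPS replicate 3. Without Mogat1, 22 of 47 tested members were lower, 13 of them past the fold threshold, with 1 lower of 8 in glycerolipid synthesis, and the median log2 fold change was -0.24.

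For VLDL assembly, Tm6sf2 (ENSMUSG00000036151), a membrane protein needed to load VLDL with lipid, was at 5.8, 4.67, 8 and 6.73 CPM in the control mice and 18.9, 19.4 and 17.2 CPM in the LPS mice. The LPS mice were close to each other and all above the controls, with a log2 fold change of 1.55 (adjusted p = 1.04e-04, SE 0.20). Mttp, the transfer protein that adds lipid to apolipoprotein B, was not called, at 290.3 ± 23.3 CPM (SD, n = 4) in control mice and 304 ± 20.6 CPM (SD, n = 3) in LPS mice, a log2 fold change of 0.07 (95% interval -0.23 to 0.36, adjusted p = 0.77).

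The droplet coat genes were the only functional group of more than 2 genes with calls in the higher direction alone. Cidec (ENSMUSG00000030278), which lets droplets fuse and grow, was at 2.26, 0.947, 1.65 and 0.774 CPM in the control mice and 8.62, 11.7 and 14.6 CPM in the LPS mice. Every LPS mouse was above the highest control mouse, and the log2 fold change was 3.06 (adjusted p = 4.35e-05, SE 0.36). Plin4 (ENSMUSG00000002831), a perilipin best known from adipocytes and muscle, was at 3.61, 2.15, 1.83 and 2.13 CPM in the control mice and 30.0, 7.22 and 11.6 CPM in the LPS mice. LPS replicate 1 stood well above the other LPS mice, which were themselves above all control mice. The log2 fold change was 2.76 (adjusted p = 4.14e-04, SE 0.43), and without LPS replicate 1 it was 1.97 (adjusted p = 0.00149). Plin5 (ENSMUSG00000011305), the perilipin of oxidative tissues that ties droplets to mitochondria, was at 15.2, 18.1, 17.4 and 22.6 CPM in the control mice and 47.7, 59.4 and 63.6 CPM in the LPS mice. The groups were tight and apart, with a log2 fold change of 1.63 (adjusted p = 1.42e-05, SE 0.17). Plin3, a perilipin of small new droplets, rose by less, with 18.9 ± 1.57 CPM (SD, n = 4) in control mice and 30.5 ± 5.42 CPM (SD, n = 3) in LPS mice, a log2 fold change of 0.69 (adjusted p = 0.00671, SE 0.16). Its adjusted p was 0.0519 without LPS replicate 3.

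Plin2, the main perilipin of hepatocytes, did not pass the test, at 283, 349, 410.2 and 457 CPM in the control mice and 379, 579 and 569 CPM in the LPS mice. LPS replicate 1 lay among the control mice and the other LPS mice above them, and the log2 fold change was 0.44 (95% interval 0.01 to 0.87, adjusted p = 0.124). Without LPS replicate 1 it was 0.62 (adjusted p = 0.0372). Cideb, the CIDE protein of hepatocytes that serves VLDL lipidation, was not called, at 70.0 ± 21.8 CPM (SD, n = 4) in control mice and 64.4 ± 7.81 CPM (SD, n = 3) in LPS mice, a log2 fold change of -0.12 (95% interval -0.59 to 0.35, adjusted p = 0.734). The ratio of Cidec to Cideb was 0.043, 0.019, 0.0188 and 0.00863 in the control mice and 0.155, 0.165 and 0.217 in the LPS mice, and that of Plin5 to Plin2 was 0.0537, 0.0519, 0.0425 and 0.0496 in the control mice and 0.126, 0.103 and 0.112 in the LPS mice, with no overlap of groups in either. Cidea, a CIDE protein of brown fat, had 0 counts in 6 of the 7 mice and 2 counts in LPS replicate 3, and was not tested.

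**Figure D2:**
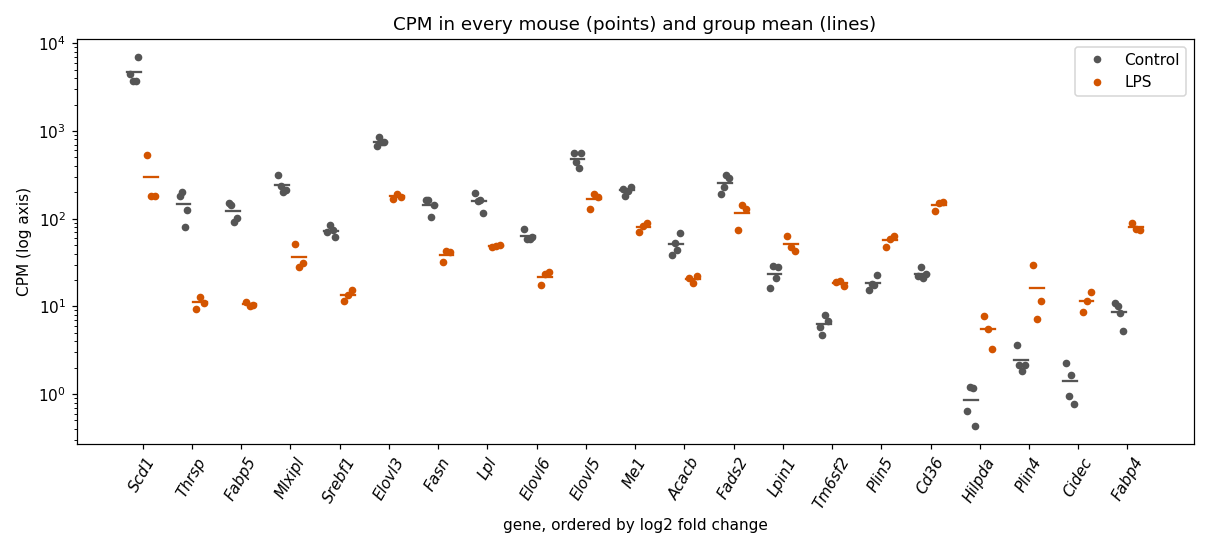
CPM (log axis) of each member past both thresholds, except Mogat1, in every mouse (points; grey control, orange LPS) with the group mean as a line, ordered by log2 fold change. The LPS points of Scd1 (533, 181 and 182 CPM) and Plin4 (30.0, 7.22 and 11.6 CPM) are spread by LPS replicate 1.

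Lipolysis is begun by adipose triglyceride lipase (Pnpla2), which the protein of Abhd5 activates and those of G0s2 and Hilpda inhibit. Hilpda (ENSMUSG00000043421) was at 0.637, 1.2, 1.16 and 0.435 CPM in the control mice and 7.83, 5.48 and 3.3 CPM in the LPS mice. Levels were low in all mice, yet the lowest LPS mouse was above the highest control mouse, and the log2 fold change was 2.70 (adjusted p = 6.52e-04, SE 0.44). Abhd5 fell, with 29.1 ± 11.4 CPM (SD, n = 4) in control mice and 16.1 ± 2.82 CPM (SD, n = 3) in LPS mice, a log2 fold change of -0.86 (adjusted p = 0.0275, SE 0.26). Its call was lost without any 1 of the LPS mice, at -0.72 (adjusted p = 0.102) without replicate 1, -0.96 (adjusted p = 0.0542) without replicate 2 and -0.90 (adjusted p = 0.0727) without replicate 3. Without control replicate 3, the highest control mouse, the call was kept, at -0.57 (adjusted p = 0.0449). Pnpla2 did not pass the test, at 35.9 ± 8.78 CPM (SD, n = 4) in control mice and 50.9 ± 5.15 CPM (SD, n = 3) in LPS mice, a log2 fold change of 0.50 (95% interval 0.11 to 0.90, adjusted p = 0.0595), and without control replicate 4 it was 0.67 (adjusted p = 0.0112). G0s2 was at 60.4, 28, 7.82 and 23.6 CPM in the control mice and 26.6, 25.4 and 23.8 CPM in the LPS mice. Control mice spanned the whole range of LPS mice, and the log2 fold change was -0.24 (95% interval -1.21 to 0.73, adjusted p = 0.743). Leaving out 1 mouse moved it to between -0.56, without control replicate 3, and 0.35, without control replicate 1. Lipe, hormone-sensitive lipase, was not called, at 5.99 ± 1.64 CPM (SD, n = 4) in control mice and 8.38 ± 1.6 CPM (SD, n = 3) in LPS mice, a log2 fold change of 0.48 (95% interval -0.10 to 1.06, adjusted p = 0.212). Mgll, monoacylglycerol lipase, fell, with 94.9 ± 10.3 CPM (SD, n = 4) in control mice and 54.9 ± 7.76 CPM (SD, n = 3) in LPS mice, a log2 fold change of -0.79 (adjusted p = 0.00205, SE 0.15). Lipa, the acid lipase of lysosomes, was called lower although the groups overlapped, with 154 ± 39.2 CPM (SD, n = 4) in control mice and 101 ± 10.6 CPM (SD, n = 3) in LPS mice, a log2 fold change of -0.61 (adjusted p = 0.0391, SE 0.20). Its call was kept in 1 of 7 fits that left out a mouse, that without control replicate 1, and the adjusted p reached 0.125 without LPS replicate 1. Pnpla3, a lipase and transacylase of hepatocyte droplets, had 24 counts in all control mice together and 1 in all LPS mice, too few for the test. The ratio of control to LPS was 19.1, with a counting interval of 3.11 to 785.

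Fatty acid uptake and binding included relatives that moved in opposite directions. Fabp4 (ENSMUSG00000062515), the fatty acid binding protein of adipocytes, macrophages and capillary endothelium, was at 11, 10.2, 8.43 and 5.23 CPM in the control mice and 88.5, 75.4 and 74.5 CPM in the LPS mice. LPS mice were all far above control mice, and the log2 fold change was 3.20 (adjusted p = 4.71e-07, SE 0.22). Fabp5 (ENSMUSG00000027533), its epidermal relative, was at 152, 142, 90.7 and 102 CPM in the control mice and 11.3, 10.2 and 10.4 CPM in the LPS mice. The LPS mice were almost equal to each other and far below every control mouse, with a log2 fold change of -3.51 (adjusted p = 1.70e-07, SE 0.21). The ratio of Fabp4 to Fabp5 was 0.0727, 0.0716, 0.0929 and 0.0514 in the control mice and 7.84, 7.41 and 7.16 in the LPS mice. Fabp2, the intestinal form, fell, with 129 ± 16.7 CPM (SD, n = 4) in control mice and 70.5 ± 25.3 CPM (SD, n = 3) in LPS mice, a log2 fold change of -0.87 (adjusted p = 0.0132, SE 0.23).

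Cd36 (ENSMUSG00000002944), a scavenger receptor that carries long chain fatty acids into cells, was at 22.4, 27.8, 21.3 and 23.4 CPM in the control mice and 123, 153 and 153 CPM in the LPS mice. Every LPS mouse was far above every control mouse, and the log2 fold change was 2.59 (adjusted p = 1.12e-07, SE 0.15). Lpl (ENSMUSG00000015568), lipoprotein lipase, which frees fatty acids from circulating triglyceride, was at 197, 157, 163 and 115 CPM in the control mice and 47.1, 48.6 and 50.1 CPM in the LPS mice. The LPS mice were nearly identical and all below the controls, with a log2 fold change of -1.70 (adjusted p = 2.01e-05, SE 0.18). Slc27a4, a fatty acid transport protein with acyl-CoA synthetase activity, was not called, at 22.3 ± 3.87 CPM (SD, n = 4) in control mice and 26.9 ± 4.36 CPM (SD, n = 3) in LPS mice, a log2 fold change of 0.27 (95% interval -0.12 to 0.65, adjusted p = 0.306). Vldlr, the VLDL receptor, was low and variable, at 3.4, 2.02, 0.306 and 1.55 CPM in the control mice and 2.81, 0.709 and 0.747 CPM in the LPS mice, with overlapping groups and a log2 fold change of -0.32 (95% interval -1.85 to 1.21, adjusted p = 0.788). Leaving out 1 mouse moved it to between -1.30, without LPS replicate 1, and 0.16, without control replicate 1.

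Several members that rose are also expressed in cells other than hepatocytes, so marker lists of those cells were read beside them. The 12 markers of Kupffer cells and macrophages summed to 154, 223, 205 and 135 CPM in the control mice and 745, 205 and 213 CPM in the LPS mice, with 5 markers higher, 1 lower and none at 0 in any mouse. The most abundant was Clec4f in the control mice, Marco in LPS replicate 1 and Lyz2 in LPS replicates 2 and 3. The sum was highest in LPS replicate 1, as Plin4 was, and in the other LPS mice it joined opposite moves. Marco was at 2.48, 5.55, 4.34 and 2.37 CPM in the control mice and 409.7, 66.5 and 65.6 CPM in the LPS mice, Lyz2 at 30.4, 36, 40.4 and 19.1 CPM in the control mice and 84.4, 69.3 and 74.1 CPM in the LPS mice, and Clec4f at 47.5, 69.9, 56.9 and 43.4 CPM in the control mice and 24.1, 5.48 and 7.28 CPM in the LPS mice. Adgre1, Cd68, Marco and Lyz2 were higher in every LPS mouse than in every control mouse, as Cd36 and Fabp4 were. C1qa was called higher with overlapping groups, Clec4f was lower, and Csf1r, Vsig4, Timd4, Cd5l, Ccr2 and Ms4a7 were not called. Cd36 was lowest in LPS replicate 1, where the marker sum, Fabp4 and Plin4 were highest. The part of macrophages in the rise of Cd36, Fabp4 and Plin4 was not tested. The 10 neutrophil markers summed to 5.17, 4.04, 1.65 and 2.95 CPM in the control mice and 208, 152 and 153 CPM in the LPS mice, with Csf3r the most abundant in the control mice and S100a9 in the LPS mice, and all 7 tested were higher. Of these, Retnlg, Ngp and Ltf had enough counts in the LPS mice only, and 4 of 4 were higher without them. Ly6g, Ngp and Mpo were at 0 counts in the control mice. The neutrophil sum was higher in every LPS mouse than in every control mouse, as were all 11 members called higher. So were 2473 of the 13683 tested genes. Among the LPS mice the sum was highest in replicate 1, as Fabp4, Plin4 and Hilpda were, whereas Cd36 and Cidec were lowest there. The part of neutrophils in the rise of Cd36, Fabp4, Cidec, Plin4 and Hilpda was not tested. The 10 endothelial markers summed to 151, 186, 125 and 160.3 CPM in the control mice and 189, 106 and 96.6 CPM in the LPS mice, with 2 higher and 3 lower. The most abundant was Eng, Kdr or Clec4g in a control mouse and Pecam1 or Eng in an LPS mouse. The 8 adipocyte markers summed to 10.0, 15.1, 6.11 and 7.31 CPM in the control mice and 4.98, 5.22 and 4.05 CPM in the LPS mice, mostly from Adrb3, which was not called but was lower in every LPS mouse than in every control mouse. Of the 2 tested, Cfd was called lower, at -2.42 (adjusted p = 0.0463, SE 0.82) on the log2 scale, with enough counts in the control mice only. Lep was at 0 counts in all mice, Retn at 0 in the control mice, and Adipoq, Plin1 and Ucp1 at 0 in all mice but control replicate 1, and the part of adipocytes in the levels of Fabp4, Cidec and Plin4 was not tested. The 10 markers of stellate cells and fibroblasts summed to 585, 419.6, 258 and 408 CPM in the control mice and 403, 315 and 301 CPM in the LPS mice, led by Dcn, with Rgs5 higher and Lrat, Reln and Ecm1 lower. The 6 cholangiocyte markers summed to 264, 109, 72.2 and 117 CPM in the control mice and 138, 165 and 159 CPM in the LPS mice, led by Spp1, with Sox9 higher, and the 8 lymphocyte markers to 5.73, 6.63, 5.19 and 4.4 CPM in the control mice and 3.23, 1.87 and 3.36 CPM in the LPS mice, led by Cd4 in the control mice and by Klrb1c or Nkg7 in the LPS mice. Of the 3 lymphocyte markers tested, Cd4 was lower, with enough counts in the control mice only.

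Levels of different members were compared per kilobase of merged exon, with exon lengths from GENCODE M21, which is annotated on GRCm38 and not on the build of the counts. Scd1 was at 913, 766, 763 and 1413 in the control mice and 109, 37.1 and 37.2 in the LPS mice, in CPM per kilobase, and Elovl3 at 342, 431, 377 and 379 in the control mice and 85.8, 96.7 and 90.0 in the LPS mice. Scd1 was above Elovl3 in every control mouse and in LPS replicate 1, and below it in LPS replicates 2 and 3. Of the droplet coat genes, Plin2 was at 107 CPM per kilobase in control and 145 in LPS mice, followed in every mouse by Cideb at 47 and 43.3 and Plin5 at 8.79 and 27.2. Among the fatty acid binding proteins, Fabp5 was above Fabp4 in control mice (34.1 and 1.94 CPM per kilobase) and below it in LPS mice (2.98 and 17.7). Both were below Fabp2 (134 and 73.1 in control and LPS mice) in each group. These orders of mean levels were not tested.

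The members differed in how much they varied between mice of a group. Among the tested members, the coefficient of variation of CPM in control mice was lowest for Agpat2 (4.19%) and Acaca (4.44%). It was highest for G0s2 (73.7%) and Vldlr (70.3%). In LPS mice it was lowest for Lpl (3.09%), Dgat1 (3.79%) and Lpin2 (3.85%). It was highest for Mogat1 (90.1%), which had 1, 1 and 0 counts there, followed by Vldlr (84.6%), Plin4 (74.1%) and Scd1 (67.9%). The values in LPS mice are limited by the closeness of LPS replicates 2 and 3 (SD of the log2 ratio 0.118).

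Reads of near-identical gene copies may be split or lost in counting, and how such reads were treated is not given in the sources used here. For 35 of the 50 members, no stretch of 50 bases of their GENCODE M21 transcripts occurred in a transcript of another gene. More than 5% of such stretches were shared for Acaca (30.4%), Me1 (22.9%), Fabp5 (5.48%) and Pnpla3 (5.14%), and their values carry that uncertainty. The gene with the most shared stretches of Acaca, Gm5182, had 160 counts over the 7 mice beside 4660 of Acaca, and Gm7329, which shares stretches of Me1, had 25 beside 18390. The Fabp5 copies Gm6166 and Gm14328 had 35 and 14 counts beside 8552 of Fabp5. For Pnpla3 the other gene was less far below, since Gm38366 had 6 counts beside 25 of Pnpla3. Scd1 and Scd2 shared 4.56% and 3.97% of their stretches with other genes, among them each other and other Scd genes. Scd1 was far more abundant than Scd2 in every mouse, so even a small share of its reads could be large beside the Scd2 count. How much of the Scd2 count belongs to Scd1 cannot be told, since the treatment of shared reads is not given. The level and log2 fold change of Scd2 carry that uncertainty.

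Other genes of the same pathways, from a list of 86 that holds no member, also had more lower than higher calls. Of 78 tested, 26 were lower and 7 higher, and 18 and 4 of these passed the fold threshold, with a median log2 fold change of -0.24. Over all tested genes, 13% were lower and 13.3% higher, and 7.31% and 7.81% passed the fold threshold as well. Without Gpat2, which had enough counts in the control mice only, 25 of 77 were lower and 17 of these passed the fold threshold. Substrate and NADPH supply had 7 lower and 1 higher of 12. Liver pyruvate kinase (Pklr), at 104 ± 11.5 CPM in control and 23 ± 5.61 CPM in LPS mice, had a log2 fold change of -2.18 (adjusted p = 3.33e-06, SE 0.19). The log2 fold changes of Acss2, an acetyl-CoA synthetase, and Acsl1, a long chain acyl-CoA synthetase, were -1.89 (adjusted p = 4.83e-05, SE 0.22) and -1.22 (adjusted p = 1.35e-04, SE 0.16). Of 13 genes of SREBP, LXR and ChREBP control, 4 were lower and none higher. Mid1ip1, a partner of the Thrsp protein, had a log2 fold change of -1.86 (adjusted p = 2.64e-05, SE 0.20). Pparg, a nuclear receptor of fat storage, had one of -1.16 (adjusted p = 0.0118, SE 0.29), and without LPS replicate 3 it was -0.97 (adjusted p = 0.0627).

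Among partners of elongation and desaturation, 5 of 11 tested were lower and 1 higher. Cytochrome b5 (Cyb5a) and its reductase (Cyb5r3) pass electrons to the desaturases. Cyb5r3 was at 505 ± 44.6 CPM in control and 159.7 ± 14.2 CPM in LPS mice, a log2 fold change of -1.66 (adjusted p = 4.63e-06, SE 0.15). Cyb5a was at 804 ± 142 CPM in control and 266 ± 14 CPM in LPS mice, a log2 fold change of -1.59 (adjusted p = 2.42e-05, SE 0.17). Fads3, a sphingoid base desaturase, and Cyb5b, the cytochrome b5 of the outer mitochondrial membrane, had log2 fold changes of -1.07 (adjusted p = 0.0153, SE 0.29) and -1.05 (adjusted p = 0.00238, SE 0.21), and Fads3 had an adjusted p of 0.0742 without LPS replicate 3. Glycerolipid synthesis partners had 2 higher and 1 lower (Gpat2) of 10, beside 13.3% higher and 13% lower of all tested genes. Gpat3, a glycerol 3-phosphate acyltransferase of the endoplasmic reticulum, rose while its mitochondrial counterpart Gpam fell, with 2.71 ± 0.784 CPM in control and 19.2 ± 2.98 CPM in LPS mice, a log2 fold change of 2.81 (adjusted p = 3.33e-06, SE 0.24). The ratio of Gpat3 to Gpam was 0.0208, 0.0204, 0.0137 and 0.0258 in the control mice and 0.246, 0.24 and 0.308 in the LPS mice. Lpgat1, a lysophospholipid acyltransferase, had a log2 fold change of 1.24 (adjusted p = 0.00113, SE 0.22). Gpat2, at under 3 CPM in all mice, had enough counts in the control mice only, as Mogat1 did. It had a log2 fold change of -2.44 (adjusted p = 0.0142, SE 0.65), and its call was lost without LPS replicate 1, at -2.14 (adjusted p = 0.0576), and without LPS replicate 3, at -2.44 (adjusted p = 0.0569).

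Droplet formation and coat partners had 2 lower and none higher of 10, beside 13% lower and 13.3% higher of all tested genes. Fitm1, a protein of droplet budding, was at 10.7 ± 4.15 CPM in control and 0.908 ± 0.13 CPM in LPS mice, a log2 fold change of -3.55 (adjusted p = 1.27e-05, SE 0.36). Hsd17b11, a dehydrogenase found on droplets, had a log2 fold change of -1.12 (adjusted p = 5.81e-04, SE 0.18). Lipases and their control had 4 lower and 1 higher of 13. Hepatic lipase (Lipc) was at 168 ± 6.42 CPM in control and 17.4 ± 2.21 CPM in LPS mice, a log2 fold change of -3.27 (adjusted p = 2.30e-08, SE 0.16). Aadac, a microsomal esterase, had a log2 fold change of -1.65 (adjusted p = 5.86e-06, SE 0.15). Gpihbp1, which anchors lipoprotein lipase on capillaries, had one of -1.26 (adjusted p = 0.0127, SE 0.33), with an adjusted p of 0.0582 without LPS replicate 2, and Angptl4, an inhibitor of lipoprotein lipase, one of 1.08 (adjusted p = 9.66e-04, SE 0.19). Uptake and binding partners had 3 lower and 2 higher of 9. Fabp1, the liver fatty acid binding protein, was at 5469 ± 1038 CPM in control and 796 ± 37.8 CPM in LPS mice, a log2 fold change of -2.78 (adjusted p = 9.65e-07, SE 0.21). Msr1, the macrophage scavenger receptor, was at 7.7 ± 1.06 CPM in control and 51.5 ± 18.9 CPM in LPS mice, a log2 fold change of 2.75 (adjusted p = 1.99e-06, SE 0.22). The macrophage marker sums given above exceeded those of all control mice in LPS replicate 1 only. The part of macrophages in the rise of Msr1 was not tested.

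RefSeq promoter windows (GRCm38.p6, from 250 bases before to 50 bases after a gene start) were found for 39 members in 55 windows, and 6 short motifs were counted on both strands. CCAAT, the box bound by NF-Y, was in 13 of 25 windows of members called lower (52.0%), in 4 of 12 of members called higher (33.3%), in 4 of 17 of members not called (23.5%) and in 37.4% of all 32851 windows. The other motifs are given in the same order. GGGCGG, the GC box, was in 12 of 25 (48.0%), 7 of 12 (58.3%), 13 of 17 (76.5%) and 35.7%. CACGTG, an E-box, was in 3 of 25, 0 of 12, 4 of 17 and 7.15%, the 3 being windows of Mlxipl, Mgll and Elovl5. TCACNCCAC, a sterol response element, was in 1 of 25, that of Mlxipl, in 0 of 12, in 0 of 17 and in 1.24%. TTCNNNGAA, a STAT motif, was in 0 of 25, 0 of 12, 1 of 17 and 8.30%, and TTGCNNAA, a C/EBP motif, in 2 of 25, 2 of 12, 2 of 17 and 10.8%. These are matches of letters only, and windows of 1 gene can overlap. No window was found for Scd1, Scd2, Elovl3, Fads1, Dgat1, Dgat2, Tm6sf2, Cidea, Lpl, Fabp4 and Fabp5.

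The windows that held CCAAT on either strand more than once before the start, among members past both thresholds, belonged to Thrsp, Elovl5 and Fasn, which fell, and to Plin5, which rose. They were chosen after the motif counts had been seen. A window of Lpin2, which was not called, also held ATTGG more than once before the start, at -233, -165 and -57. The 250 bases before the start are chr7:97417551-97417800 (minus strand) for Thrsp, chr9:77917115-77917364 (plus strand) for Elovl5, chr11:120824548-120824797 (minus strand) for Fasn and chr17:56117549-56117798 (minus strand) for Plin5, all on GRCm38.p6. Each is written 5′ to 3′ on the strand of the gene, with CCAAT or its complement ATTGG in capitals. In Fasn, CCAATTGG holds an overlapping CCAAT and ATTGG.
Thrsp: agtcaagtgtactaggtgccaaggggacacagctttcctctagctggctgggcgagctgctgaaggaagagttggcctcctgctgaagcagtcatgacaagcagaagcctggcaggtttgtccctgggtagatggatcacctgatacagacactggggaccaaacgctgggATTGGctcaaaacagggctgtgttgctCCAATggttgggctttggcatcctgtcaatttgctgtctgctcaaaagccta
Elovl5: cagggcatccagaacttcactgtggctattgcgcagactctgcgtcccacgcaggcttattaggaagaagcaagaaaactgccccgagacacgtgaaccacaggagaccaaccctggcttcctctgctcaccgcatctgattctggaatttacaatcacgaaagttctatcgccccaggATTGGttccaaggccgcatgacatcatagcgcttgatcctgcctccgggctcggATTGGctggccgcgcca
Fasn: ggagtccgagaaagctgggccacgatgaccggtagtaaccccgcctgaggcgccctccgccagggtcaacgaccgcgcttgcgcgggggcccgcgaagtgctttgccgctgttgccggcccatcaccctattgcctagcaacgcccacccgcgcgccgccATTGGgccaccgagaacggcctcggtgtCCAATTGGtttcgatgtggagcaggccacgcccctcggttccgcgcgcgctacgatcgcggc
Plin5: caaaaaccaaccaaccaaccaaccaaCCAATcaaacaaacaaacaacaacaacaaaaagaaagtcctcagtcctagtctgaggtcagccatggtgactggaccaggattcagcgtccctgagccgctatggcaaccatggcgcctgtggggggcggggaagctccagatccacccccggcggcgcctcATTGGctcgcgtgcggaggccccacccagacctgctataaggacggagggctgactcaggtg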

How the data were processed

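Liver RNA of 4 control and 3 LPS mice was read as poly(A) libraries that keep the strand, on the MGISEQ2000 platform. The authors deposited counts, whole numbers of reads per gene, without normalization. The submitters' processing notes name cutadapt 1.9.1, HISAT2 2.2.1, HTSeq 0.6.1, DESeq2 1.34.0 and the build GRCm39, without roles. The annotation release is not given in the sources used here, and no coordinates are given for the counted genes.

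Counts were analysed in R 4.3.3 with edgeR 4.0.16: filterByExpr, TMM scaling, quasi-likelihood fits on condition alone, and p-values adjusted over 13683 genes by Benjamini-Hochberg. Genes were called at an adjusted p below 0.05. SE was derived from the F statistic, and intervals are at 95%. With 3 counts as the floor, the smallest detectable amount was 0.138 to 0.212 CPM per library, for counting error only. Counting intervals (exact binomial), exon lengths, shared stretches and promoter motifs were computed in Python 3.11.15 with pandas 2.3.3 and scipy 1.17.1, and figures with matplotlib 3.10.9. The alternatives included DESeq2 1.42.0.

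Members and lists were chosen with earlier results of these data known. The rule named members past both thresholds with every mouse's value, other members by mean and SD or by interval, and from the pathway list called genes with an absolute log2 fold change above 1, at most 4 per list, largest first. The result of 1 pathway gene that met this rule is not reported here. The within-mouse ratios, the share of Scd1, the per-mouse values of uncalled members, the analyses of spread, length and shared stretches, and the promoters shown were chosen after values had been seen. The marker Tf was not matched by symbol.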

Additional observations from a re-analysis of the deposited data

Results flagged for a closer look

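The control mice were examined for a single mouse far from the others in each of the 50 members, on log2(CPM + 0.5), and 1 value stood out. Dgat2 was at 180.4, 242, 248 and 257 CPM in the control mice and 183, 219 and 229 CPM in the LPS mice, and control replicate 1 was the lowest. Its gap to the next control mouse was 0.837 of the range of the group, past Dixon's critical value for 4 samples. Chance flags about 1 in 20 groups, so 1 flag among 50 members is no more than chance would give.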

How the results depend on the processing

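All 34 member calls were kept with DESeq2, RLE factors, no mitochondrial genes, or library sizes without the genes above 1%, 32 with no scaling factor and 33 with no low count filter. With at least 10 counts required in every sample 32 were kept, 10 members higher and 22 lower, and Mogat1 and Hilpda were not tested. No called value of a named gene changed sign in any alternative. With no scaling factor 1350 genes were higher and 2057 lower in all, against 1825 and 1773 with TMM, and the median log2 fold change of all genes was -0.13. At an adjusted p below 0.01, 1091 genes were higher and 993 lower in all, and 16 pathway genes were lower. With an absolute log2 fold change above 1, 1068 genes were higher and 1000 lower in all, 14 members were lower and 4 pathway genes higher. Leaving out 1 mouse gave 1146 to 1868 lower genes in all, the lowest without LPS replicate 2 and 1159 without LPS replicate 3, with 8 to 12 members higher, 19 to 22 lower, and 27 to 32 of the 34 calls kept. The deviations of same-numbered mice correlated at 0.205, -0.0603 and 0.0801. LPS replicate 1 correlated best with its own number. LPS replicate 2 correlated best with control replicate 3 (0.107), and LPS replicate 3 with control replicate 4 (0.0846). So few correlations cannot decide whether mice of 1 number were paired. With the replicate block over replicates 1 to 3, 1658 genes were higher and 1594 lower in all, 13 members were higher and 22 lower, 5 pathway genes were higher and 25 lower, and 32 member calls were kept. The calls of Agpat2 (adjusted p = 0.104), Lipa (adjusted p = 0.057) and, among pathway genes, Gpat2 (-2.30, adjusted p = 0.0559) were lost under the block. The same 6 mice with no block, a fit added after seeing the data, kept 31. With LPS replicates 2 and 3 summed, the calls of Fads1, Agpat2, Agpat3, Abhd5 and Lipa were lost. Scd2 passed the threshold with no low count filter, under the block and without control replicate 1, but was at 0.39 (adjusted p = 0.45) without LPS replicate 1 and had an adjusted p of 0.119 in the same 6 mice with no block. Plin2 passed under the block (adjusted p = 0.0346) and without LPS replicate 1, and had an adjusted p of 0.0825 in the same 6 mice with no block. Pnpla2 passed with no low count filter, under the block and without control replicate 4, and Lpin2 without control replicate 4. Low counts limited what could be said of Mogat1, Pnpla3 and Cidea, and Mogat1 was not tested in 3 of the fits without a control mouse.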
